A study of Oncorhynchus mykiss with 12 samples.

Results

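Nuclear factors of activated T cells (NFAT) and the regulators of calcineurin (rcan) were followed in dorsal skin of rainbow trout (Oncorhynchus mykiss). The genes were taken from a table of FPKM values (fragments per length of transcript and per mapped fragments, so that levels of different genes can be set side by side). A gene entered when its symbol, ignoring case and a copy ending of a or b, was nfatc1, nfatc2, nfatc3, nfatc4, nfat5, rcan1, rcan2 or rcan3. This gave 23 genes of 42290 entries, 17 NFAT genes and 6 rcan genes. NFATC1, nfatc3 and nfat5 had 4 copies each, nfatc2 had 3, and nfatc4, rcan1, rcan2 and rcan3 had 2 each. The study compared wild-type with yellow mutant trout, a colour form, and its design text describes both as F1 fish from wild-type fathers and yellow mutant mothers. There were 3 RNA-Seq libraries of each genotype. The labels give no age, sex, treatment or causal allele and do not say whether a library is 1 fish or a pool, so intervals and p-values measure only the spread between these libraries. The family was selected on a measured value, the lower FPKM of 1 NFATC1 copy (ncbi_110518416 in the table, called the abundant copy here) in yellow mutant skin. Differences between genotypes in these 23 genes are therefore given as descriptions. Their intervals and the counts of those called are printed beside the values, and nothing is read from them as evidence of a difference.

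NFATC1, nfatc2, nfatc3 and nfatc4 encode transcription factors that wait in the cytoplasm in a phosphorylated form. When calcium rises, calmodulin switches on the phosphatase calcineurin, which strips these phosphates and lets the factors enter the nucleus, and kinases later send them back out. NFAT5 is the relative that answers to osmotic stress and is not controlled through calcineurin in this way. The rcan proteins, also named calcipressins, bind calcineurin and restrain it, and rcan1 is itself switched on by NFAT in mammals. In mammals NFATC1 is best known from T cells, from bone-resorbing osteoclasts, from the endothelium of heart valves and from hair follicle stem cells.

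The libraries summed to 396278 to 428561 FPKM. Absolute depth is unknown, and depth relative to wild-type replicate 1, read from the steps of low values, ranged from 0.904 to 1 in wild-type libraries and from 0.582 to 1.01 in yellow mutant libraries. Markers of skin were present, with 1790 to 2720 FPKM summed over 28 keratinocyte marker copies and 373 to 637 FPKM over 24 melanophore marker copies. Skeletal muscle markers were present as well, at 1120 to 4090 FPKM. Across all genes, limma with Benjamini-Hochberg adjustment called 9 of 27268 tested genes higher in the yellow mutant and 0 lower, with 930 higher and 707 lower at an unadjusted p under 0.05.

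One NFATC1 copy stood far above the rest of the family in wild-type skin, and it was the copy that differed most between the genotypes. The abundant NFATC1 copy was at 22.7, 23.5 and 25.6 FPKM in the wild-type libraries and at 9.39, 9.33 and 7.09 FPKM in the yellow mutant libraries. Every yellow mutant library was below every wild-type library, and yellow mutant replicate 3 was the lowest. The means were 24.0 ± 1.51 FPKM in wild-type libraries and 8.60 ± 1.31 FPKM in yellow mutant libraries (SD, n = 3 each), 2.79-fold apart. On the log2(FPKM + 1) scale, where changes of low genes come out too small, the difference was -1.39 with a standard error of 0.16 and a 95% interval from -1.75 to -1.02. In these bulk samples fewer cells that carry the transcript and less transcript per cell cannot be told apart.

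The gene ranked 1623 of 27268 tested genes by its wild-type mean, above 94.0% of them, and 4929 by its yellow mutant mean, above 81.9% of them. Even in yellow mutant skin it was the most abundant of the 23 genes. Next below it was RCAN2 (gene 110529653) in wild-type skin, at 4.78 ± 0.793 FPKM, and nfat5b (gene 110506508) in yellow mutant skin, at 4.34 ± 0.619 FPKM, and in neither genotype did its libraries overlap those of the next gene.

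The remaining NFATC1 copies were low in both genotypes. The copy named nfatc1 (gene 110496069) was at 3.27, 3.22 and 2.55 FPKM in wild-type libraries and 1.94, 2.53 and 2.14 FPKM in yellow mutant libraries. The groups did not overlap, but by a narrow margin, with wild-type replicate 3 at 2.55 FPKM and yellow mutant replicate 2 at 2.53 FPKM. Its log2 difference was -0.32, with an interval from -0.65 to 0.00. NFATC1 (gene 110489695) was at 2.25, 2.41 and 1.95 FPKM and at 1.90, 2.09 and 1.30 FPKM, and its groups overlapped. NFATC1 (gene 110496087) was at 0.568, 0.498 and 0.327 FPKM and at 0.157, 0.234 and 0.358 FPKM, too low to be tested.

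**Figure D1:**
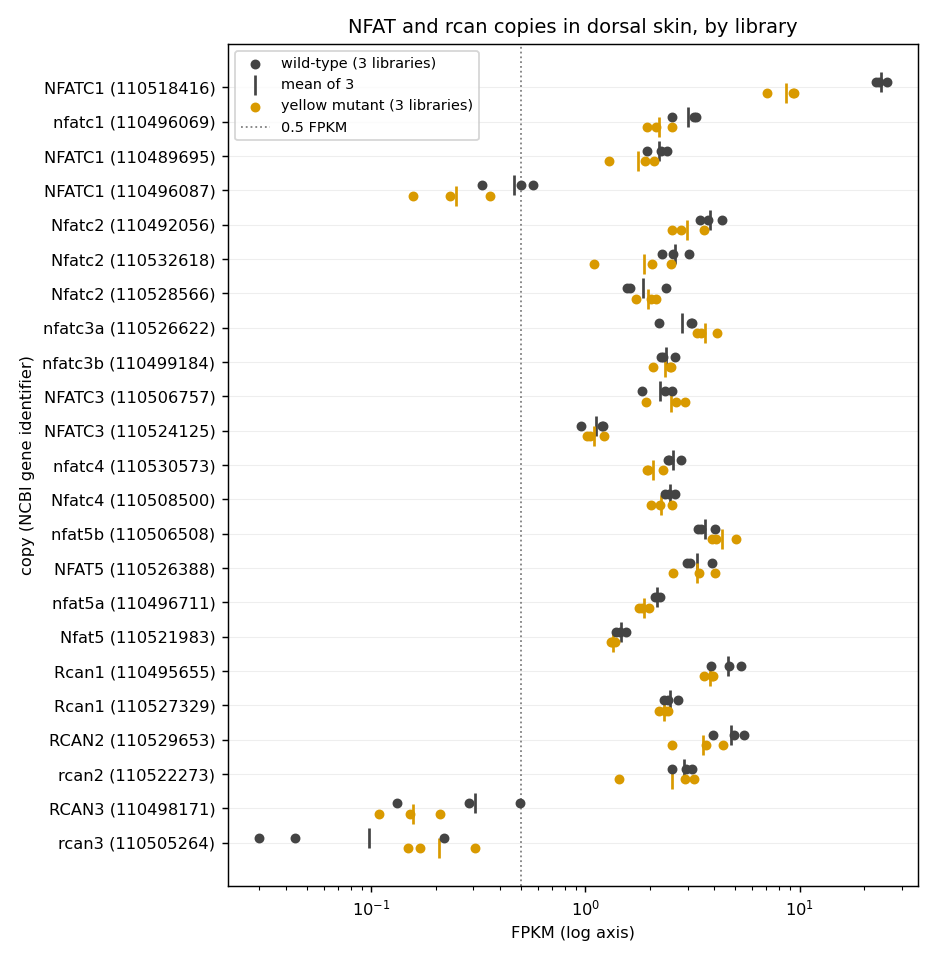
FPKM (log axis) of the 23 NFAT and rcan copies, 1 point per library, with wild-type in grey, yellow mutant in yellow, a bar at each mean of 3 libraries and a dotted line at 0.5 FPKM. The abundant NFATC1 copy lies apart on the right, with wild-type libraries at 22.7 to 25.6 and yellow mutant libraries at 7.09 to 9.39 FPKM, while the 3 untested copies lie mostly left of the dotted line.

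Summed over its 4 copies, NFATC1 was at 28.8, 29.7 and 30.5 FPKM in wild-type libraries and 13.4, 14.2 and 10.9 FPKM in yellow mutant libraries. The abundant copy supplied 80.8% ± 2.92 of this sum in wild-type and 67.0% ± 2.74 in yellow mutant skin (SD, n = 3 each). Of the sum over all 13 copies of the calcineurin-regulated factors, it supplied 46.5% ± 2.15 and 25.6% ± 1.96. That sum was 51.5 ± 1.70 FPKM in wild-type libraries and 33.5 ± 3.03 FPKM in yellow mutant libraries. Without the abundant copy the other 12 copies summed to 27.6 ± 1.28 and 24.9 ± 1.83 FPKM, and the closest libraries, wild-type replicate 3 and yellow mutant replicate 2, were both at 26.8 FPKM, the wild-type one higher only in the next digit. How reads that match several copies were assigned is not stated, so the division of a sum among copies is uncertain.

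**Figure D2:**
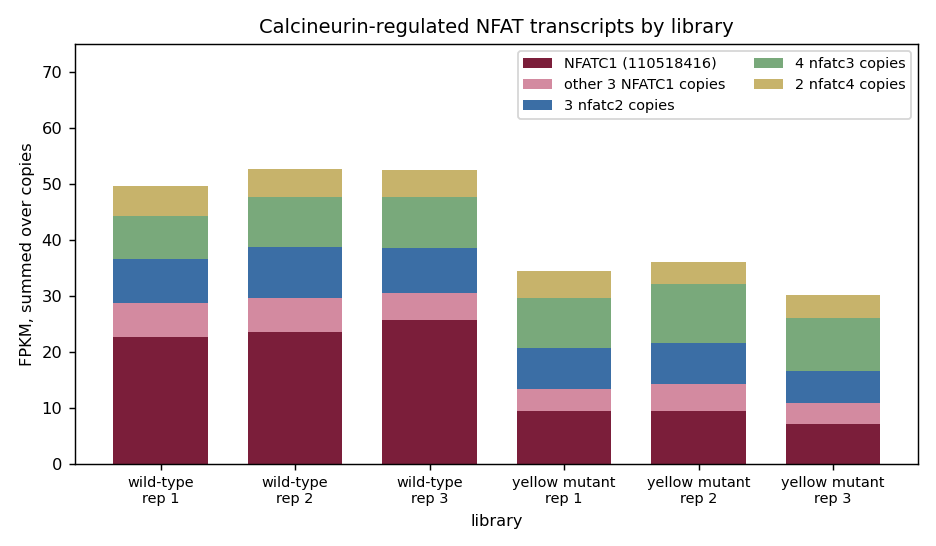
Stacked FPKM of the calcineurin-regulated NFAT genes in each of the 6 libraries, with the abundant NFATC1 copy at the base. The bars reach 49.6 to 52.6 FPKM in wild-type libraries and 30.2 to 36.1 FPKM in yellow mutant libraries, and the base segment holds most of that gap.

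The nfatc2, nfatc3 and nfatc4 copies had smaller log2 differences than the abundant copy, in both directions, each with an interval that included 0. Nfatc2 (gene 110492056), from a family named for its part in T cell activation, was at 3.75, 4.34 and 3.41 FPKM in wild-type libraries and 3.57, 2.78 and 2.55 FPKM in yellow mutant libraries. Nfatc2 (gene 110532618) was at 2.56, 3.06 and 2.27 FPKM and at 2.05, 2.51 and 1.10 FPKM. Both pairs of groups overlapped, and yellow mutant replicate 3 was the lowest library for both copies. The third copy, Nfatc2 (gene 110528566), had means of 1.85 ± 0.463 and 1.97 ± 0.213 FPKM.

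Among the nfatc3 copies, nfatc3a (gene 110526622) was at 2.195, 3.11 and 3.13 FPKM in wild-type libraries and 3.33, 4.11 and 3.46 FPKM in yellow mutant libraries. It was the 1 tested member whose yellow mutant libraries all lay above the wild-type libraries, although its interval, from -0.06 to 0.64, included 0. The log2 differences of nfatc3b (gene 110499184) and of NFATC3 (genes 110506757 and 110524125) were -0.01, 0.11 and -0.02, each with overlapping groups. Both nfatc4 copies were near 2.5 FPKM in wild-type skin. nfatc4 (gene 110530573) was at 2.78, 2.47 and 2.43 FPKM and at 2.30, 1.94 and 1.96 FPKM, with all yellow mutant libraries lower, and Nfatc4 (gene 110508500) was at 2.48 ± 0.125 and 2.26 ± 0.256 FPKM, with overlap.

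NFAT5, the osmotic stress factor, had 4 copies that together stood at 10.6 ± 0.615 FPKM in wild-type libraries and 10.9 ± 1.11 FPKM in yellow mutant libraries. nfat5b (gene 110506508) was at 3.35, 4.02 and 3.46 FPKM and at 3.89, 5.05 and 4.08 FPKM, with a log2 difference of 0.21 and an interval from -0.11 to 0.53. NFAT5 (gene 110526388) had means of 3.32 ± 0.516 and 3.33 ± 0.748 FPKM. The other nfat5 copies had the smallest coefficients of variation in the family, 2.48% for nfat5a in wild-type skin and 2.24% for Nfat5 in yellow mutant skin. Each was so in 1 genotype only. In yellow mutant skin nfat5a was at 5.70%, above the 5.48% and 4.81% of Rcan1 (genes 110495655 and 110527329). In wild-type skin Nfat5 was at 5.55%, above the 5.02% of Nfatc4 (gene 110508500). nfat5a (gene 110496711) was at 2.15, 2.22 and 2.12 FPKM and at 1.84, 1.99 and 1.78 FPKM, and Nfat5 (gene 110521983) at 1.39, 1.45 and 1.55 FPKM and at 1.34, 1.32 and 1.38 FPKM. In both, all yellow mutant libraries were below all wild-type libraries, by small amounts, with log2 differences of -0.14 and -0.07 and intervals that included 0.

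The 4 tested rcan copies, for inhibitors of calcineurin, had lower means in yellow mutant skin, each with an interval that included 0. Summed over all 6 copies, rcan was at 15.23, 15.04 and 15.27 FPKM in wild-type libraries and 13.9, 13.6 and 10.2 FPKM in yellow mutant libraries. These sums did not overlap, but for each of the 4 tested copies alone the groups overlapped. Rcan1 (gene 110495655) was at 5.33, 4.70 and 3.86 FPKM in wild-type libraries and 3.92, 3.95 and 3.57 FPKM in yellow mutant libraries. The groups overlapped through wild-type replicate 3, and the log2 difference was -0.22 with an interval from -0.54 to 0.11. Rcan1 (gene 110527329) had means of 2.49 ± 0.189 and 2.32 ± 0.112 FPKM. RCAN2 (gene 110529653) was at 3.93, 4.94 and 5.49 FPKM and at 4.39, 3.67 and 2.54 FPKM, with a log2 difference of -0.36 and an interval from -0.80 to 0.07. For rcan2 (gene 110522273) the values were 3.14, 2.53 and 2.96 FPKM and 2.92, 3.23 and 1.43 FPKM. Only yellow mutant replicate 3 was low for this gene, and without that library its log2 difference was 0.07 in place of -0.17. The rcan3 copies were barely detected, RCAN3 (gene 110498171) at 0.132 to 0.494 FPKM in wild-type libraries and 0.109 to 0.21 FPKM in yellow mutant libraries, and rcan3 (gene 110505264) at 0.03 to 0.219 and 0.149 to 0.306 FPKM.

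Of the 23 genes, 20 passed the filter on low values (at least 0.5 FPKM in at least 3 of the 6 libraries), and all 20 were above 0.5 FPKM in all 6 libraries. The limma fit called 0 of the 20, beside 0.033% of all tested genes called in either direction. By an unadjusted p under 0.05, 1 of 20 was lower, the abundant NFATC1 copy, beside 2.59% of all tested genes, and 0 of 20 were higher, beside 3.41%. In 5 of 20 every yellow mutant library was below every wild-type library, beside 4.92% of all tested genes, and in 1 of 20 every one was above, beside 6.07%. The authors' deposited table gave the abundant NFATC1 copy a log2 fold change of -1.48 and an FDR of 1.41e-04, while the FDR of the other 22 genes in the authors' deposited table was 0.862 or more. At an FDR under 0.05 in the authors' deposited table, 1 of 23 members was lower, beside 0.0969% of all entries, and 0 of 23 were higher, beside 0.229%. A log2 difference of -1 or lower was found in 1 of 20 members and in 0.539% of all tested genes. Since this contrast led to the choice of the family, nothing is read from these counts.

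The log2 difference was below 0 in 16 of the 20 tested genes, with a median of -0.12, and in 47.0% of all tested genes, with a median of 0.01. Without the abundant copy the median of the remaining 19 was -0.10, with values from -0.36 to 0.29. Yellow mutant replicate 3 was the lowest of the 6 libraries for 9 of the 20 genes, or 45.0%, and for 17.7% of all tested genes. Without that library 13 of the 20 genes were lower and the median was -0.09. Wild-type replicate 3 was the lowest for 0 of the 20 genes and for 11.7% of all tested genes. The median spread within a genotype was smaller for these genes than for all tested genes. The coefficient of variation had a median of 11.6% in wild-type skin, against 16.8% over all tested genes, and of 12.7% in yellow mutant skin.

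**Figure D3:**
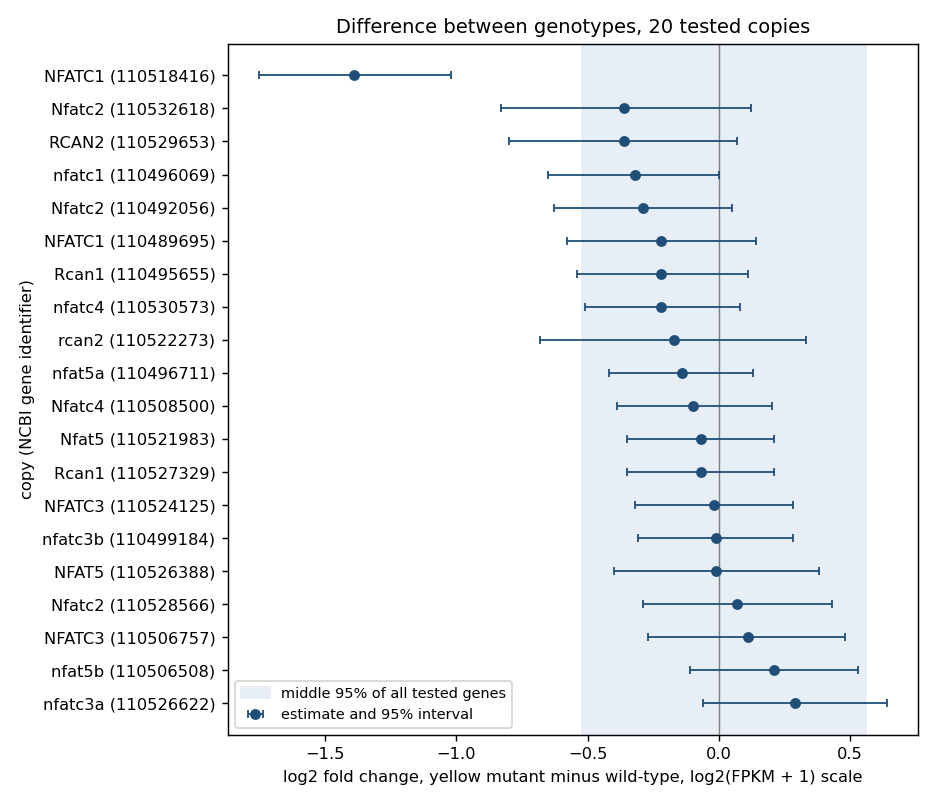
Log2 difference between genotypes (yellow mutant minus wild-type, log2(FPKM + 1) scale) with its 95% interval for the 20 tested copies, ordered from lowest to highest. The shaded band, from -0.52 to 0.56, holds the middle 95% of all tested genes, and the interval of the abundant NFATC1 copy is the only one of the 20 that lies wholly outside it.

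Ordered by level, the family formed a nearly continuous series below the abundant copy. In wild-type skin 18 of the 22 neighbouring pairs in the order had overlapping libraries, and in yellow mutant skin 19 of 22. The breaks in both genotypes were below the abundant NFATC1 copy at the top and around Nfat5 (gene 110521983) and NFATC3 (gene 110524125) near the bottom. From RCAN2 (gene 110529653) at 4.78 FPKM down to Nfatc2 (gene 110528566) at 1.85 FPKM, no wild-type neighbours differed beyond their spread. Of the 20 tested genes, 7 were above the median of all tested genes in wild-type skin, 3.01 FPKM.

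The order of genes along the chromosomes, which played no part in choosing the family, paired most copies. All 23 identifiers were found among RefSeq genes (assembly USDA_OmykA_1.1), a table used here only for names and for which genes lie next to each other. The 5 protein-coding genes on each side of every copy were compared by name. With each copy placed in at most 1 pair, the pair with the most shared names and at least 3 of them, 10 pairs shared 3 to 9 neighbour names, as duplicated regions do, and these pairs held 20 of the 23 genes. The abundant NFATC1 copy paired with NFATC1 (gene 110489695), and both lay between a copy of the transcription factor gene sall3 and a copy of the riboflavin transporter gene rft2. They shared 8 neighbour names, while nfatc1 (gene 110496069) shared 3 with each of them and gene 110496087 shared 0.

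The paired NFATC1 copies differed more in level than any other tested pair. Their ratio was 10.1, 9.79 and 13.2 in the wild-type libraries and 4.94, 4.46 and 5.47 in the yellow mutant libraries. In the other 8 pairs with both copies tested, the ratio of the higher to the lower mean was 1.03 to 2.13 in wild-type and 1.09 to 2.15 in yellow mutant skin. The lowest belonged to the nfatc4 pair and the highest to nfatc3b (gene 110499184) and NFATC3 (gene 110524125). The NFATC1 pair holds the copy on which the family was selected. How reads shared by paired copies were assigned is not stated, so all these ratios are uncertain.

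Genes beside the abundant NFATC1 copy were low in both genotypes. Sall3 (gene 110518407) was at 0.268 ± 0.0821 and 0.285 ± 0.0684 FPKM, and rft2 (gene 110518433) at 0.103 ± 0.0494 and 0.0503 ± 0.0602 FPKM, both under the filter. macf1b (gene 110518672), for a protein that links actin and microtubules, was at 0.755 ± 0.329 and 0.743 ± 0.238 FPKM, and its log2 difference had an interval from -0.41 to 0.41.

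The remaining pathway genes, from calcium entry to known NFAT targets, were counted in 8 lists, of which 7 are described. Of 123 tested genes, 0 passed over all genes (limma, Benjamini-Hochberg). At an unadjusted p under 0.05 there were 6 higher and 3 lower genes, and over all tested genes 3.41% were higher and 2.59% lower by this measure. The median log2 difference was 0.05. The calcineurin subunit genes, for the phosphatase itself, had 11 tested copies, of which 7 were higher and 4 lower, with a median of 0.07 and a range from -0.12 to 0.24. Their summed level was 47.4 FPKM in wild-type libraries and 51.6 FPKM in yellow mutant libraries. The smallest p belonged to ppp3ccb (gene 100499601), a catalytic subunit, at 8.55 ± 0.428 and 10.2 ± 1.41 FPKM (limma, Benjamini-Hochberg adjusted p = 0.897).

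Store-operated calcium entry, which refills calcium stores and feeds calcineurin, had 20 tested copies with a median of 0.04. Plcg1 (gene 110523019), a phospholipase that releases stored calcium, was at 3.40, 3.80 and 3.19 FPKM in wild-type libraries and 2.37, 1.97 and 2.44 FPKM in yellow mutant libraries. All yellow mutant libraries were lower, as in 4.92% of all tested genes, but the gene was not called (log2 difference -0.45, limma, Benjamini-Hochberg adjusted p = 0.641). Of the 20 copies, 12 were higher and 8 lower. The copy plcg1 (gene 110492526) was at 11.6 ± 0.655 and 10.9 ± 0.489 FPKM, with overlap. For orai1 (gene 110537204) all yellow mutant libraries were higher, at 1.24 ± 0.196 and 1.93 ± 0.134 FPKM (limma, Benjamini-Hochberg adjusted p = 0.748). The same held for orai1 (gene 110523726), at 1.04 ± 0.186 and 1.55 ± 0.241 FPKM, and plcg2 (gene 100136053), at 2.98 ± 0.161 and 4.06 ± 0.753 FPKM. It also held for ITPR2 (gene 110522681), at 2.63 ± 0.46 and 3.34 ± 0.181 FPKM. Over all tested genes 6.07% had every yellow mutant library higher, and none of these copies was called. Further orai1 and ITPR2 copies overlapped. Other calcineurin inhibitors and NFAT scaffolds had a median of 0.03 over 20 copies, with cabin1 (gene 110525628), a calcineurin-binding protein, at 5.25 ± 0.458 and 6.94 ± 0.588 FPKM. The kinases that rephosphorylate NFAT and the nuclear transport genes had a median of -0.02 over 31 copies. Dyrk2 (gene 110499731), one of those kinases, was at 2.52 ± 0.516 and 1.41 ± 0.659 FPKM, with overlap. Neither cabin1 nor this Dyrk2 copy passed, with adjusted p = 0.776 and 0.769 (limma, Benjamini-Hochberg). Another Dyrk2 copy (gene 110499732) had a higher mean in yellow mutant skin, at 4.51 ± 0.804 and 5.35 ± 1.22 FPKM, with overlap.

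Genes known as NFAT targets did not share 1 direction. The osmotic targets of NFAT5 had a median of 0.04 over 12 copies, of which 7 were higher and 5 lower. Their sum over 14 copies, tested or not, was 116 to 127 FPKM in wild-type libraries. In yellow mutant libraries it was 142 to 148 FPKM. The gap between these sums lay mainly in AKR1B1 (genes 110490236 and 110490237), described next. The other tested targets went in both directions. AKR1B1 (gene 110490237), an aldose reductase that makes the osmolyte sorbitol and that is also counted among pteridine genes in fish, was at 4.88, 2.35 and 1.57 FPKM in wild-type libraries and 11.2, 13.3 and 15.3 FPKM in yellow mutant libraries. These groups were far apart, yet the gene was not called (log2 difference 1.94, standard error 0.29, limma, Benjamini-Hochberg adjusted p = 0.155). AKR1B1 (gene 110490236) was at 38.6 ± 0.976 and 54.6 ± 3.44 FPKM, also with all yellow mutant libraries higher, as in 6.07% of all tested genes. AKR1B1 (gene 110500234) was at 5.09 ± 1.32 and 5.41 ± 1.98 FPKM, with overlap.

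Among the osteoclast targets of NFATC1, known from mammals, 15 of 17 tested copies were higher, with a median of 0.19, while 53.0% of all tested genes were higher. MMP9 (gene 110492670), a matrix protease, had the smallest p, at 11.4, 5.24 and 5.83 FPKM in wild-type libraries and 12.0, 10.1 and 28.3 FPKM in yellow mutant libraries, with overlap and with its highest value in yellow mutant replicate 3 (limma, Benjamini-Hochberg adjusted p = 0.83). Of the lymphocyte targets only egr2b (gene 110511819) and egr3 (gene 110536011), for early response transcription factors, were high enough to test. egr2b was at 1.79 ± 0.256 and 1.16 ± 0.373 FPKM and egr3 at 0.994 ± 0.121 and 0.661 ± 0.16 FPKM, and neither passed (limma, Benjamini-Hochberg adjusted p = 0.83 and 0.868). The cytokine gene il2 was at 0.103 ± 0.105 and 0.0543 ± 0.0941 FPKM.

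**Figure D4:**
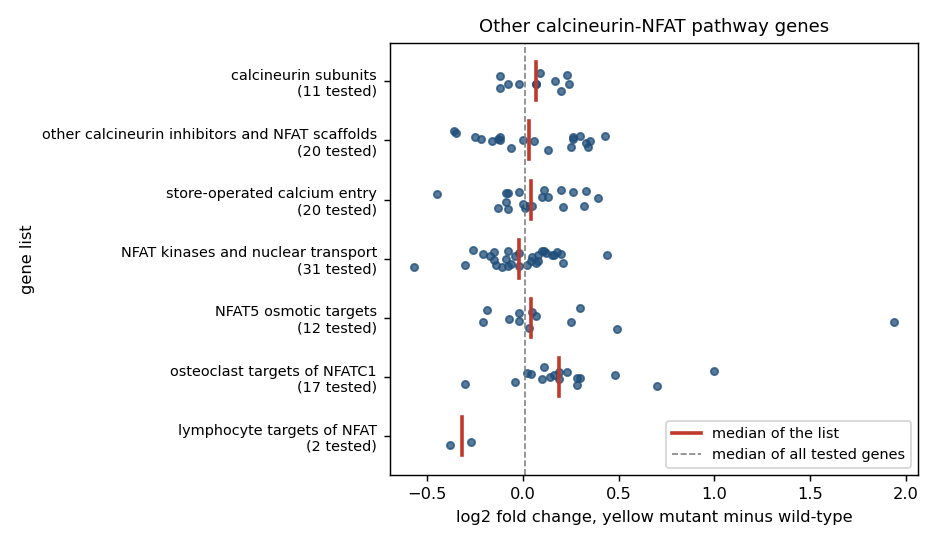
Log2 difference between genotypes (yellow mutant minus wild-type) of every tested gene in 7 pathway lists, 1 point per gene copy, with a red bar at each list's median and a dashed line at the median of all tested genes, 0.01. List medians lie between -0.32 and 0.19, and AKR1B1 (gene 110490237), at 1.94, is the point farthest from 0.

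Markers of several cell types were read beside the abundant NFATC1 copy. They included T cells and endothelium, where NFATC1 is known from mammals (in endothelium, from heart valves). Summed endothelial markers (31 copies, 22 tested, 18 of these lower, 0 called, 1 PROX1 copy at 0 in all libraries) were at 121 to 180 FPKM in wild-type libraries and 101 to 151 FPKM in yellow mutant libraries, with means 1.24-fold apart. Over all tested genes 47.0% were lower. At an unadjusted p under 0.05, 4 of the endothelial copies were lower and 1 higher, beside 2.59% and 3.41% of all tested genes. The median log2 difference of the 22 copies was -0.28, with values from -0.91 to 0.79. CDH5, for the cadherin of endothelial junctions, was named after its values were seen. It was at 9.50 and 5.19 FPKM (gene 110506352, 1.83-fold apart) and at 8.24 and 3.94 FPKM (gene 110526277, 2.09-fold apart), with overlap in both. Both CDH5 copies differed more than the endothelial sum, and 4 of the 22 tested endothelial copies were higher. Smooth muscle and mural markers (24 copies, 21 tested, 18 of these lower, 0 called) were at 376 to 473 and 309 to 365 FPKM, 1.31-fold apart in sum. At an unadjusted p under 0.05, 8 of the 21 were lower and 0 higher, beside the same 2.59% and 3.41%. The median log2 difference of the 21 copies was -0.25, with values from -1.54 to 0.07. CNN1 and Rgs5, named after their values were seen, differed more than the sum, to which TAGLN (gene 110503678) alone gave 175 and 122 FPKM. CNN1 (gene 110486482), for calponin of smooth muscle, was at 11.1 ± 4.12 and 2.97 ± 0.383 FPKM, 3.73-fold apart and without overlap (limma, Benjamini-Hochberg adjusted p = 0.235). Rgs5 (gene 110521694), a pericyte marker, was at 9.23 ± 2.38 and 4.77 ± 1.25 FPKM, 1.93-fold apart and without overlap. Over all tested genes 4.92% had every yellow mutant library below every wild-type library. The abundant NFATC1 copy differed 2.79-fold, and the part of endothelial and mural cells in that difference was not tested. T and NK lymphocyte markers (8 copies, 7 tested, 7 of these higher, 0 called) were at 8.84 to 14.7 FPKM in wild-type libraries and 13.4 to 19.5 FPKM in yellow mutant libraries. At an unadjusted p under 0.05, 2 of the 7 were higher and 0 lower. Macrophage markers were at 136 to 147 and 127 to 150 FPKM. Markers of xanthophores, the yellow pigment cells (9 copies, 8 tested, 5 of these higher and 3 lower, 1 called higher), were at 31.7 to 34.2 FPKM and at 79.2 to 101 FPKM. At an unadjusted p under 0.05, 4 of the 8 were higher and 0 lower. Melanophore markers (16 tested, 13 higher, 0 called) were at 373 to 402 and 453 to 637 FPKM. At an unadjusted p under 0.05, 9 of the 16 were higher and 0 lower, and their median log2 difference was 0.70. The median of the 8 xanthophore copies was 0.50. Keratinocyte markers (21 tested, 19 higher, 0 called) were at 1790 to 2200 and 2210 to 2720 FPKM. Their median was 0.20, with 1 higher and 1 lower at an unadjusted p under 0.05. Over all tested genes 53.0% were higher.

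**Figure D5:**
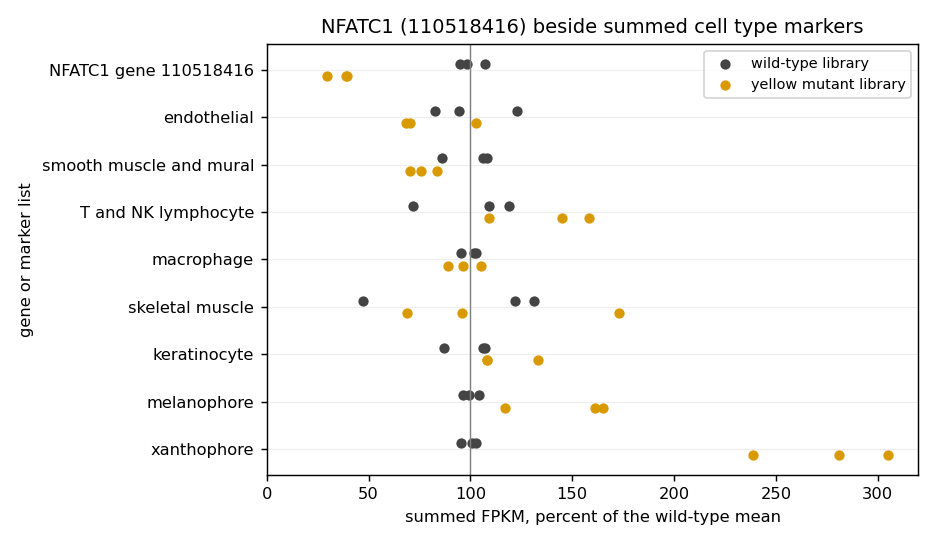
Level in each library as a percentage of the wild-type mean, for the abundant NFATC1 copy and for the summed FPKM of 8 cell type marker lists, with wild-type libraries in grey and yellow mutant libraries in yellow. NFATC1 lies at 29.6% to 39.2% in yellow mutant skin, endothelial markers at 68.5% to 103% and smooth muscle and mural markers at 70.5% to 83.5%.

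The genes whose values over the 6 libraries were most like those of the abundant NFATC1 copy were found among 21330 tested genes with an informative name and a mean of at least 1 FPKM. Likeness was the root mean square difference between log2(FPKM + 1) values centred on each gene's mean over the 6 libraries. The nearest was cd209 (gene 100136662), which encodes an immune cell lectin, at a distance of 0.207, with 18.2, 16.5 and 16.8 FPKM in wild-type libraries and 9.10, 7.44 and 6.94 FPKM in yellow mutant libraries. Ehd2 (gene 110508136), for a membrane-shaping protein of caveolae, followed at 0.232, and g0s2 (gene 110532623), for an inhibitor of triglyceride breakdown, at 0.26. als2a (gene 110501974), for an exchange factor of small GTPases, was at 0.271. mao (gene 100136729), for monoamine oxidase, which breaks down amine transmitters, was at 0.288, with 6.17, 7.52 and 9.55 FPKM in wild-type libraries and 4.28, 3.23 and 3.33 FPKM in yellow mutant libraries. All 5 genes had every yellow mutant library below every wild-type library, which this choice by likeness to the abundant copy largely sets.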

How the data were processed

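RNA-Seq of dorsal skin was analysed in 3 wild-type and 3 yellow mutant libraries. The FPKM values are the authors' own, as deposited. The log2 fold change and the FDR in the same table, an adjusted p-value from a test that is not given in the sources used here, are also the authors' own, per the file headers. The tools named, per the submitters' processing notes, are TopHat2 2.1.1 and Bowtie2 2.2.8, without their roles. Genome build and counting tool: not given in the sources used here. Libraries of miRNA were not used.

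Genes with at least 0.5 FPKM in at least 3 libraries were tested with limma 3.58.1 in R 4.3.3 on log2(FPKM + 1), two-sided, with a trended, robust eBayes step, a single genotype term, and p-values adjusted by Benjamini-Hochberg across the 27268 tested genes (threshold 0.05). The procedure was tested on simulated data. An exact permutation test of 3 against 3 cannot go below 0.1 and was not used. The members and lists were chosen with earlier results of these data known. Named are all members, from each pathway list the gene with the smallest p (none passed; 1 list and its gene are not reported here), and the 5 genes nearest to NFATC1 in profile; rcan3 and NFATC1 copies under the filter are given as values. The chromosomal neighbours of NFATC1, the single cell type markers, egr3 and il2 were named after their values were seen. So were the orai1 copies, plcg2, ITPR2 and the further copies of plcg1, Dyrk2 and AKR1B1. Alternatives were the pseudocount, the filter, scaling, eBayes settings, depth as a covariate, a replicate block and leaving out each library.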

Additional observations from a re-analysis of the deposited data

How the results depend on the processing

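The abundant NFATC1 copy had a log2 difference between -1.48 and -1.27 under all alternatives run, and between -1.45 and -1.27 when single libraries were left out. Of the NFAT and rcan genes, 0 were called over all libraries, and 1, the abundant NFATC1 copy, was called under 3 settings (no trended or robust eBayes, a filter at 5 FPKM, or scaling by median of ratios), where it was also the 1 gene called lower among all genes. Since the family was selected on the level of this copy, nothing is read from that call. Leaving out single libraries gave 0 calls among the members, 0 to 11 genes called higher and 0 to 4 called lower. Without wild-type replicate 1 or 3 or yellow mutant replicate 3 the count of higher genes was 0, and without wild-type replicate 2 it was 1, against 9 over all libraries. With log2 relative depth as a covariate and with the replicate block 0 genes were called higher. The replicate numbers are not stated to pair the libraries, and the deviations of same-numbered libraries correlated at 0.115, -0.213 and 0.158 for numbers 1, 2 and 3, with number 2 not matching its own number best. Pathway genes called were 0 under every alternative run. Of 281 recomputed log2 differences of members, 2 moved by 1 SD or more, both with a pseudocount of 0.1, and 10 changed sign, in 6 members whose main value was between -0.17 and 0.11. With the 5 FPKM filter 1 of the members was tested. The cause of these changes was not tested. Precision is limited by 3 libraries per genotype, and absolute depth is unknown.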
